A study of Mus musculus with 9 samples.

Results

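The 10 cell death genes *Bcl2l1*, *Mcl1*, *Bax*, *Bak1*, *Bcl2l11*, *Bbc3*, *Pmaip1*, *Bid*, *Fas* and *Tnfrsf10b* were followed through the livers of 9 ethanol-fed mice. They were taken by symbol from the deposited gene table, in which each of the 10 symbols had 1 row among 55401 genes. RNA was sequenced from the livers of 4 mice that lacked *Ncf1* in myeloid cells and from 5 WT mice, to ask what neutrophil p47phox does to the ethanol-exposed liver. *Ncf1* encodes p47phox, a subunit of the phagocyte NADPH oxidase. The first group, Ncf1 Lyz-/- (NKO2 to NKO5 in the table), was homozygous for a floxed *Ncf1* allele with LoxP sites in introns 1 and 8 and carried Lyz-Cre, which is active in neutrophils and macrophages. The second group, WT (WT1 to WT4 and WT6), was made of Lyz-Cre-negative littermates with the same floxed allele, so WT here is not free of LoxP sites. All 9 were female C57BL/6 mice of 10 to 12 weeks. They were acclimatized for 5 days to a liquid diet, then fed 5% (v/v) ethanol in that diet for 10 days, and on day 11 given 5 g/kg ethanol by gavage, 9 hours before the liver was taken. No liver without ethanol was part of these data, and only the Ncf1 Lyz-/- mice carried Cre, so an effect of Cre itself and one of *Ncf1* loss cannot be told apart.

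The BCL2 family decides whether the outer mitochondrial membrane is opened. Its survival members, such as MCL1 and BCL-xL (the product of *Bcl2l1*), hold the pore-forming members BAX and BAK in check, and the BH3-only members BIM (*Bcl2l11*), PUMA (*Bbc3*), NOXA (*Pmaip1*) and BID relay death signals to both. Death receptors such as FAS and the TRAIL receptor (*Tnfrsf10b*) act from the cell surface through FADD and caspase-8, and in hepatocytes they depend on cleavage of BID to reach the mitochondria, while loss of either MCL1 or BCL-xL from mouse hepatocytes is enough to cause their spontaneous death.

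Some of these genes are known targets of stress-responsive transcription factors, and 8 of the 10 had 13 promoter windows in the RefSeq table used here (GRCm38.p6, from 250 bases before to 50 bases after each gene start). *Tnfrsf10b* had none, and *Pmaip1* is named only. Each window was searched on both strands for a FOXO core (TGTTTAC), an AP-1 site (TGANTCA), a C/EBP-ATF element (TGATGNAA) and the p53 half-site. The stretches below show the matches, in capitals, because FOXO factors and p53 recur among the genes described further on. All are written 5′ to 3′ on the strand of the gene. The first holds the FOXO core on the opposite strand, 227 bases before the *Bcl2l11* start (chr2:128125788-128125853, + strand), the second on the gene's own strand 167 bases before one of the *Bbc3* starts in RefSeq (chr7:16310058-16310136, + strand). *Bbc3* has 3 windows there, and this start lies inside the gene as annotated in GENCODE, so the stretch is within the gene and upstream only of that start.
Bcl2l11 FOXO: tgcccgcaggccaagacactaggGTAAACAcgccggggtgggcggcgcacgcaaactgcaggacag
Bbc3 FOXO: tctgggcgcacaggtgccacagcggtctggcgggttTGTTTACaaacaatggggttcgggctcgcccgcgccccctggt
The p53 half-site lay 201 bases before the *Bax* start (chr7:45467054-45467135, − strand), and the AP-1 site 211 bases before the *Fas* start (chr19:34290412-34290490, + strand).
Bax p53 half-site: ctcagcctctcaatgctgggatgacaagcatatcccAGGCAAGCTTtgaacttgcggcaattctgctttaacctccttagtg
Fas AP-1: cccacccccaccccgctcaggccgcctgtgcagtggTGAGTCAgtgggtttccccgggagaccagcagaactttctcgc
Of all 32851 windows in the table, 3.65% held the FOXO core, 7.81% the AP-1 site and 8.36% the p53 half-site. The C/EBP-ATF element was in no window of these genes and in 3.97% of all windows. Such a match is a run of letters and not a shown binding site.

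Values were in FPKM, fragment numbers divided by transcript length and library size, so they can be set side by side between genes of different length. Depth recovered from the values ran from 18.6 to 20.1 M fragments (M, mega) in the Ncf1 Lyz-/- libraries and from 15.25 to 18.65 M in the WT libraries, with WT3, WT4 and WT6 the shallowest. The liver was clear from its markers, with summed hepatocyte marker levels of 54649 to 72435 FPKM against 163 to 507 FPKM for 15 macrophage genes and 4.49 to 23.8 FPKM for 13 neutrophil genes. In such bulk RNA, fewer cells of a type and less RNA per cell cannot be told apart. *Ncf1* itself had 0.368, 0.333, 0.440 and 0.885 FPKM in the Ncf1 Lyz-/- livers and 1.83, 1.16, 0.492, 0.366 and 1.10 FPKM in the WT livers, with overlap (log2 fold change −0.74, adjusted p = 0.890 from limma). *Lyz2*, the lysozyme gene whose locus drives Cre, had a log2 fold change of −0.81 (adjusted p = 0.842). Across the 12350 genes that averaged 0.5 FPKM or more, 1 was called at an adjusted p under 0.05 (0.00810%), 268 had an unadjusted p under 0.05 and were higher (2.17%), and 461 were lower (3.73%). The median log2 fold change was 0.0030.

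No gene of the 10 was called between Ncf1 Lyz-/- and WT livers. *Bcl2l1* stood nearest, lower in the Ncf1 Lyz-/- livers by 0.40 on the log2 scale, followed by *Bid*, which was higher by 0.36. The other 6 tested genes lay between −0.17 and 0.020. Of the 8 genes that reached a mean of 0.5 FPKM and entered the limma fit, 0 passed the adjusted threshold, 1 (*Bcl2l1*) had an unadjusted p under 0.05, and 0 had groups that did not overlap. The last count compares with 1.50% of all tested genes with every Ncf1 Lyz-/- value below every WT value and 0.713% with every value above. Of the 8 log2 fold changes, 6 were negative, with a median of −0.12, where 49.5% of all tested genes were negative. *Pmaip1* and *Tnfrsf10b* were too low for the fit and were compared by the exact permutation test alone. The p-values weigh the difference between the groups against the spread between these mice.

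Levels differed widely between the genes. By mean FPKM over the 9 livers the order was *Mcl1* (24.4), *Bax* (9.15), *Bak1* (8.05), *Fas* (6.57), *Bcl2l1* (4.77), *Bid* (3.75), *Bcl2l11* (1.64), *Bbc3* (1.22), *Pmaip1* (0.385) and *Tnfrsf10b* (0.137). *Mcl1* was the highest of the 10 in every liver, and *Tnfrsf10b* the lowest. *Bax* and *Bak1* changed places from liver to liver, *Bak1* taking places 2 to 5, and *Bcl2l1* and *Bid* held places 4 to 6. The transcript pool was thus led by 1 survival gene and 2 pore-forming genes, with *Tnfrsf10b* and the BH3-only genes other than *Bid* in the last 4 places, and *Mcl1* alone made up 34.5% to 47.7% of the summed FPKM of all 10.

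**Figure D1:**
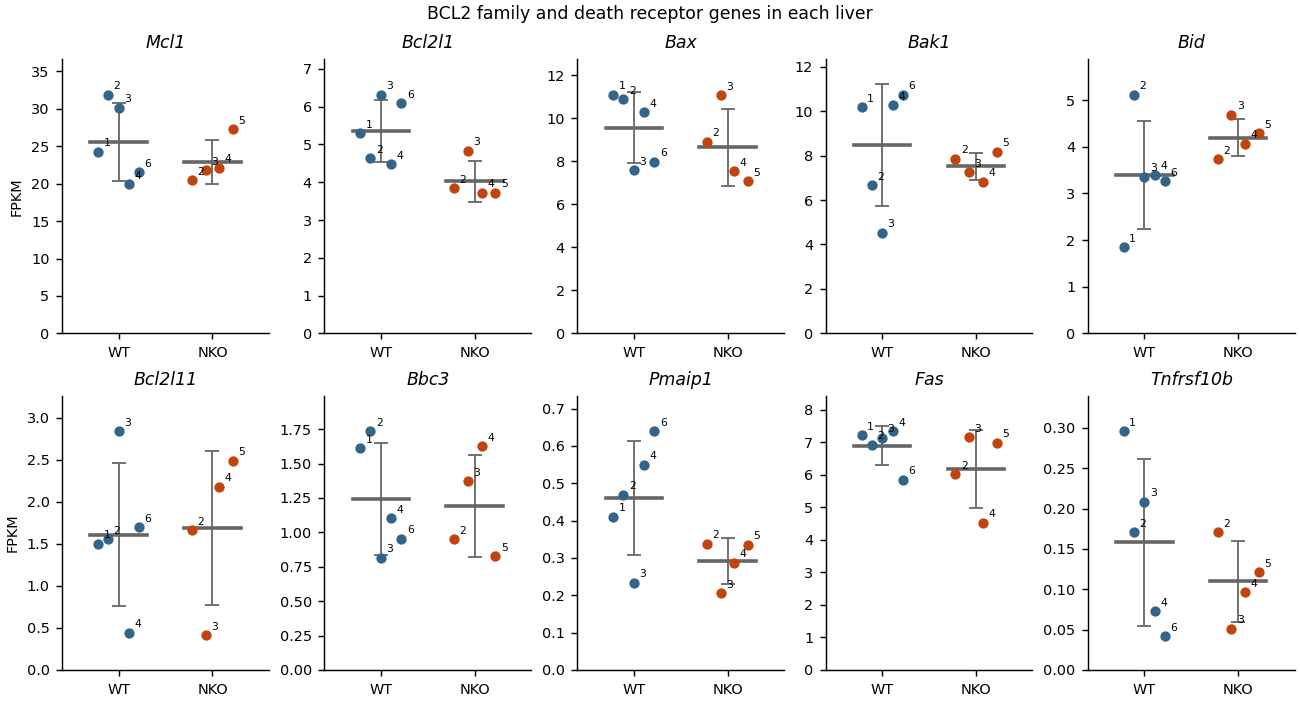
Level of each of the 10 genes in FPKM (vertical axes, from 0) in each WT (blue) and Ncf1 Lyz-/- liver (NKO, orange). Numbers beside the points name the liver, and the bars show mean and SD of 5 WT and 4 NKO livers. The groups overlap in all 10 panels. *Bcl2l1* overlaps through NKO3 alone, at 4.84 FPKM, and *Bcl2l11* is low in NKO3 and WT4.

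Among the survival genes, *Mcl1* encodes a short-lived protein that binds BAK and several BH3-only proteins (chr3:95658788-95663176, GRCm38). It had 20.5, 21.8, 22.2 and 27.2 FPKM in the Ncf1 Lyz-/- livers and 24.2, 31.9, 30.1, 19.9 and 21.5 FPKM in the WT livers. The highest 2 values, WT2 and WT3, and the lowest, WT4, were all WT, and the Ncf1 Lyz-/- range lay inside the WT range. Its log2 fold change was −0.14 (standard error 0.16, 95% interval −0.50 to 0.22, adjusted p = 0.932).

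*Bcl2l1* encodes BCL-xL, the long-lived survival protein of hepatocytes and also of maturing red cells and platelets (chr2:152780668-152831728). Its levels were 3.84, 4.84, 3.72 and 3.72 FPKM in the Ncf1 Lyz-/- livers and 5.29, 4.63, 6.31, 4.48 and 6.09 FPKM in the WT livers. NKO2, NKO4 and NKO5 lay below every WT liver, and NKO3 lay above WT2 and WT4. The means were 4.03 ± 0.542 (SD, n = 4) and 5.36 ± 0.829 FPKM (SD, n = 5), with a log2 fold change of −0.40 (standard error 0.14, 95% interval −0.72 to −0.077). The unadjusted limma p was 0.0202, which ranked the gene 290 among the 12350 and gave an adjusted p of 0.839, and the two-sided exact permutation test gave p = 0.0476. With each liver left out in turn the log2 fold change stayed between −0.49 and −0.34, with an unadjusted p between 0.00787 without NKO3 and 0.0552 without NKO5. It was −0.30 in the 6 libraries of higher depth (the 4 Ncf1 Lyz-/- libraries, WT1 and WT2), in which the median of all tested genes moved to −0.11. There, with 2 WT livers in place of 5, *Bcl2l1* no longer had an unadjusted limma p under 0.05. WT1 and WT2 also had the highest macrophage marker sums, 454 and 507 FPKM against 163 to 373 FPKM in the other livers. Depth and cell content therefore cannot be told apart in this setting. The erythroid marker sum overlapped between the groups through NKO2 alone. Of 8 listed, 7 were in the table, 6 were above the absent value in every liver, and the sum was 2084 FPKM in NKO2, 481 to 664 FPKM in the other 3 Ncf1 Lyz-/- livers and 998 to 1925 FPKM in WT. Without NKO2, the liver with the highest sum, *Bcl2l1* differed by −0.38. The remaining Ncf1 Lyz-/- livers all had a lower erythroid sum than every WT liver, the same direction as *Bcl2l1*. Leaving NKO2 out therefore cannot show what red cell RNA contributes, and its part in the *Bcl2l1* level was not tested.

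Few other survival genes were expressed at a comparable level. Of 8 listed, 6 were tested and 4 of them were negative (against 49.5% of all tested genes), with a median of −0.082. At an unadjusted p under 0.05, 1 (*Bcl2l1*) was lower, against 3.73% of all tested genes. *Bcl2l2*, the gene of BCL-w, had 3.48 to 3.98 FPKM in the 4 Ncf1 Lyz-/- livers and 0.766, 5.30, 4.66, 3.33 and 3.52 FPKM in WT. Its log2 fold change of 0.34 (adjusted p = 0.940) rested on the low value in WT1, and was −0.12 without it. *Bcl2* had a mean under 0.5 FPKM and was not tested, and *Bcl2l10* was at the absent value in every liver.

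The *Bcl2a1* genes, which encode the survival protein A1 of neutrophils and other blood cells, stood out in 1 liver. *Bcl2a1b* had 1.09, 1.02, 0.361 and 5.52 FPKM in NKO2 to NKO5 and 1.04 to 2.36 FPKM in WT, and the sum of *Bcl2a1a*, *Bcl2a1b* and *Bcl2a1d* was 10.0 FPKM in NKO5 against 1.06 to 3.57 FPKM in the other 8 livers. These 3 genes are near-identical copies, so reads can be shared among them and their single levels are uncertain. The same liver had the highest neutrophil marker sum, 23.8 FPKM against 4.49 to 12.8 FPKM elsewhere, led by *S100a9* (11.3 FPKM) and *S100a8* (4.37 FPKM). Of the 13 neutrophil genes, 6 were above the absent value in every liver, and *Ly6g*, *Mpo*, *Elane*, *Camp*, *Ltf*, *Ngp* and *Retnlg* were absent in at least some. What the neutrophil markers contribute to the *Bcl2a1* levels was not tested. *Bcl2a1b* (log2 fold change −0.28) and *Bcl2a1d* (0.54) did not pass the test (adjusted p = 0.970 and 0.900).

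The pore-forming genes overlapped broadly between the groups. *Bax*, whose protein moves from the cytosol to mitochondria (chr7:45461697-45466898), had 8.90, 11.1, 7.52 and 7.07 FPKM in the Ncf1 Lyz-/- livers and 11.1, 10.9, 7.57, 10.3 and 7.97 FPKM in WT. Both groups held livers near 7.5 and livers near 11 FPKM, so they covered the same range. Between the groups *Bax* differed by −0.15 on the log2 scale (standard error 0.17, 95% interval −0.53 to 0.24, adjusted p = 0.933).

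*Bak1*, whose protein resides in the mitochondrial membrane (chr17:27019810-27029009), had 7.86, 7.25, 6.82 and 8.18 FPKM in the Ncf1 Lyz-/- livers and 10.2, 6.66, 4.52, 10.3 and 10.7 FPKM in WT. The Ncf1 Lyz-/- livers lay close together, in the gap between WT1, WT4 and WT6 above and WT2 and WT3 below. The log2 fold change was −0.10 (standard error 0.25, 95% interval −0.65 to 0.45, adjusted p = 0.975) and reached 0.0026 without WT6. *Bok*, the third gene of this kind, had 1.19 to 1.53 FPKM in Ncf1 Lyz-/- and 1.09 to 2.42 FPKM in WT livers (−0.34, adjusted p = 0.900). All 3 log2 fold changes were negative (against 49.5% of all tested genes), 0 of 3 had an unadjusted p under 0.05, and the median was −0.15.

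The balance of survival to pore-forming transcripts did not separate the groups. The ratio of *Mcl1* plus *Bcl2l1* to *Bax* plus *Bak1* was 1.45, 1.45, 1.80 and 2.03 in the Ncf1 Lyz-/- livers and 1.39, 2.08, 3.01, 1.19 and 1.48 in WT. WT3, with high *Mcl1* and *Bcl2l1* and low *Bak1*, had the highest ratio and WT4 the lowest. The ratio of *Bcl2l1* to *Bax* was 0.431 to 0.526 in Ncf1 Lyz-/- livers, and in WT it was 0.426 to 0.477 in 3 livers and 0.764 and 0.834 in WT6 and WT3. These ratios are given as a description, with no test.

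The tested BH3-only genes varied between livers, *Bcl2l11* most widely. *Bid*, the substrate of caspase-8 that links death receptors to mitochondria (chr6:120891930-120916853), had 3.74, 4.68, 4.06 and 4.29 FPKM in the Ncf1 Lyz-/- livers and 1.84, 5.11, 3.36, 3.40 and 3.26 FPKM in WT. The 4 Ncf1 Lyz-/- livers lay above 4 of the 5 WT livers and below WT2. The log2 fold change was 0.36 (standard error 0.24, 95% interval −0.18 to 0.90, unadjusted p = 0.165, adjusted p = 0.900). WT1 and WT2 pulled it in opposite ways, to 0.17 (unadjusted p = 0.350) without WT1 and to 0.52 (unadjusted p = 0.0302, adjusted p = 0.470) without WT2. The exact permutation test over all 9 gave p = 0.214.

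*Bcl2l11* encodes BIM, which binds every survival protein of the family and is induced by FOXO factors (chr2:128126038-128162547). It had 1.67, 0.412, 2.18 and 2.49 FPKM in the Ncf1 Lyz-/- livers and 1.50, 1.55, 2.84, 0.441 and 1.70 FPKM in WT. A single liver of each group, NKO3 and WT4, was far below the rest, and the other 7 lay between 1.50 and 2.84 FPKM, a 1.89-fold range against 6.90-fold for all 9. If fragments fell on the longest of its 8 annotated transcripts, NKO3 and WT4 had about 40.5 and 35.4 fragments and the other livers 131 to 252. The SD within groups was 0.98 on the log2 scale, larger than in 95.5% of tested genes, whose median was 0.30. The log2 fold change of 0.020 (standard error 0.56, 95% interval −1.24 to 1.28, adjusted p = 0.996) therefore gave little precision, and it ran from −0.35 without WT4 to 0.54 without NKO3. Without NKO2, NKO4 or NKO5 it was also negative. The table has 1 value a gene, so which isoforms of BIM were low in those 2 livers was not measured here.

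*Foxo1*, one of the FOXO genes of the liver, was low in only 1 of those 2 livers. It had 5.66, 3.07, 4.35 and 4.28 FPKM in the Ncf1 Lyz-/- livers and 4.40, 3.75, 8.84, 9.48 and 6.89 FPKM in WT. It was lowest in NKO3, as *Bcl2l11* was, and highest in WT4, where *Bcl2l11* was low. Whether FOXO factors set the *Bcl2l11* level in these livers was not tested. Its log2 fold change was −0.55 (adjusted p = 0.890) and 0.061 in the 6 libraries of higher depth. *Foxo3* ranged from 2.35 to 4.72 FPKM over all livers, with 3.08 in NKO3 and 3.16 in WT4.

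*Bbc3* encodes PUMA, a direct p53 target with the FOXO core in 1 of its 3 windows (chr7:16308393-16318205). It had 0.948, 1.37, 1.63 and 0.825 FPKM in the Ncf1 Lyz-/- livers and 1.61, 1.73, 0.815, 1.10 and 0.954 FPKM in WT. Each group had livers near 0.8 and livers above 1.6 FPKM. Its fold change on the log2 scale was −0.048 (standard error 0.27, 95% interval −0.65 to 0.55, adjusted p = 0.984). It was positive without NKO2, NKO5, WT1 or WT2 and −0.50 in the 6 libraries of higher depth.

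*Pmaip1*, the gene of NOXA, which binds MCL1, had 0.338, 0.205, 0.288 and 0.335 FPKM in the Ncf1 Lyz-/- livers and 0.410, 0.469, 0.233, 0.549 and 0.639 FPKM in WT. All 4 Ncf1 Lyz-/- livers lay below 4 of the 5 WT livers, and WT3 lay among them. The difference of the mean log2(FPKM + 0.1) was −0.48, and the exact permutation test gave p = 0.0952. Without WT3, the only WT liver that overlapped the Ncf1 Lyz-/- livers, the difference was −0.66 and the groups separated fully. The exact permutation p of 0.0286 is then the smallest that regrouping the remaining livers allows, so it follows from leaving out that liver. At 9.7 to 26.6 fragments a liver, on the longest transcript, counting error is large at this level.

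Outside the 10 genes, *Bmf* and *Bik* were the BH3-only genes with the smallest p. *Bmf*, which responds to loss of cell attachment, had 0.762, 0.553, 0.450 and 0.469 FPKM in the Ncf1 Lyz-/- livers and 0.734, 1.11, 1.35, 1.30 and 0.536 FPKM in WT (log2 fold change −0.70, unadjusted p = 0.0338, adjusted p = 0.842). *Bik* had 1.93, 1.76, 0.866 and 1.08 FPKM against 1.61, 2.41, 2.86, 2.16 and 1.72 FPKM (−0.62, unadjusted p = 0.0385, adjusted p = 0.842). Both overlapped between the groups. *Bad* was at 2.88 to 5.35 FPKM in all livers with no clear difference (−0.022, adjusted p = 0.993), and *Hrk* was not tested. Of 8 BH3-only genes listed, 6 were tested and 4 were negative (against 49.5% of all tested genes), with a median of −0.035. At an unadjusted p under 0.05, 2 of the 6 were lower, against 3.73% of all tested genes.

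**Figure D2:**
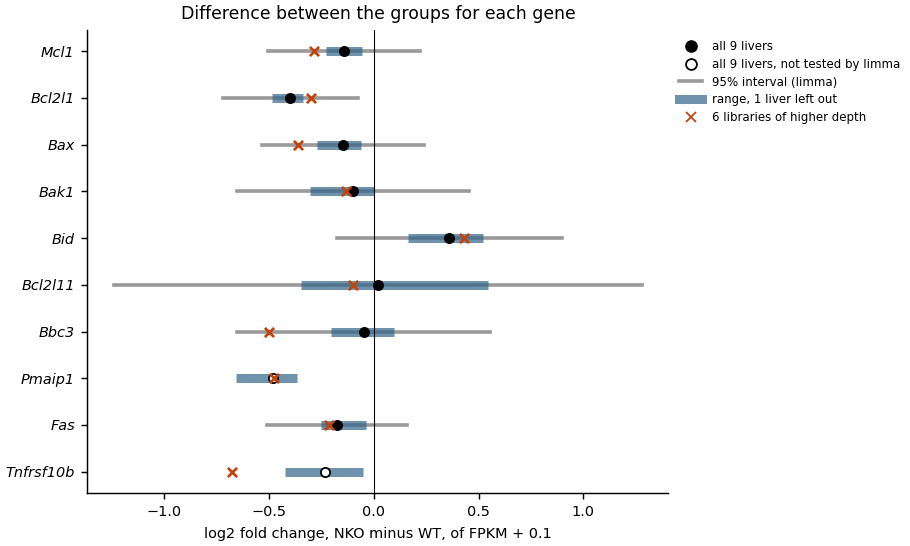
Log2 fold change of FPKM + 0.1, Ncf1 Lyz-/- (NKO) minus WT, for each of the 10 genes (horizontal axis). Filled points are the 8 genes fitted by limma with their 95% interval (grey line), open points are genes below the level for the fit, blue bars span the values with 1 liver left out, and crosses are the 6 libraries of higher depth. The interval of *Bcl2l1* alone, −0.72 to −0.077, lies on 1 side of 0, and that of *Bcl2l11* is the widest.

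Among the death receptors, *Fas* encodes the receptor by which FAS ligand kills hepatocytes (chr19:34290666-34327772). It had 6.02, 7.15, 4.53 and 6.98 FPKM in the Ncf1 Lyz-/- livers and 7.20, 6.92, 7.13, 7.33 and 5.85 FPKM in WT. In WT, 4 livers lay within 6.92 to 7.33 FPKM and WT6 was lower, and the lowest level of all was in NKO4. On the log2 scale *Fas* differed by −0.17 (standard error 0.15, 95% interval −0.51 to 0.16, adjusted p = 0.910), and −0.035 without NKO4. *Tnfrsf10b*, the mouse TRAIL receptor (chr14:69767472-69784411), had 0.171, 0.0509, 0.0962 and 0.121 FPKM in the Ncf1 Lyz-/- livers and 0.296, 0.171, 0.209, 0.0730 and 0.0417 FPKM in WT. These levels amount to 2.0 to 17.1 fragments a liver on the longest transcript. The exact permutation test gave p = 0.508 for a difference of −0.23, and no difference was detectable at this depth.

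*Tnfrsf1a*, the TNF receptor that signals death or NF-κB, was the death receptor with the highest level and the smallest p. It had 30.2, 25.9, 31.2 and 35.2 FPKM in the Ncf1 Lyz-/- livers and 41.1, 35.1, 52.8, 38.5 and 52.2 FPKM in WT. The groups met only at NKO5 and WT2, which were nearly equal. The log2 fold change was −0.51 (standard error 0.15, unadjusted p = 0.00767, adjusted p = 0.783, exact permutation p = 0.0238), and it stayed between −0.58 and −0.43 with each liver left out. In the 6 libraries of higher depth it was −0.32, where the median of all tested genes was −0.11. *Tnfrsf21*, the DR6 gene, had 1.42 FPKM in NKO3 and 2.10 to 2.59 FPKM in the other 8 livers (log2 fold change −0.23, adjusted p = 0.900), and the difference was −0.073 without NKO3. All 3 tested receptors of 5 listed were negative (against 49.5% of all tested genes), and the median was −0.23. At an unadjusted p under 0.05, 1 was lower, against 3.73% of all tested genes. *Tnfrsf25* was not tested.

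Of the ligands, few reached the level for the fit. *Tnfsf10*, the TRAIL gene, was the one tested of 5, with 0.631 to 0.915 FPKM in Ncf1 Lyz-/- and 0.368 to 1.03 FPKM in WT livers (adjusted p = 0.956 for a log2 fold change of 0.17). *Fasl* had at most 0.185 FPKM and was absent in WT4. *Tnf* had 2.72 FPKM in NKO5, the liver with high *Bcl2a1* genes, and at most 0.433 FPKM in the other 8. *Tnfsf15* was not tested and *Lta* was at the absent value in every liver.

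The adaptors next to the receptors held no gene with an unadjusted p under 0.05. Of 12 adaptors and regulators of the receptor complex, 11 were tested and 6 were negative (against 49.5% of all tested genes). The median was −0.0066, and 0 of the 11 had such a p in limma. *Ripk3*, the kinase of necroptosis, came nearest, with 0.954, 1.06, 0.403 and 0.606 FPKM in the Ncf1 Lyz-/- livers and 1.78, 1.35, 1.15, 0.907 and 0.852 FPKM in WT (log2 fold change −0.64, unadjusted p = 0.0565, adjusted p = 0.844). *Mlkl*, its substrate, had a log2 fold change of −0.38 and *Fadd*, the adaptor of FAS, of 0.35 (adjusted p = 0.890 for each). *Casp8* and *Tradd* were highest in NKO3, at 11.5 and 4.89 FPKM, against 5.53 to 8.81 and 1.36 to 2.79 FPKM in the other livers. *Cyld* was not tested.

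Of 15 genes of the apoptosome, caspases and nuclear execution, 13 were tested and 5 were negative (against 49.5% of all tested genes), with a median of 0.038. At an unadjusted p under 0.05, 1 gene was lower, against 3.73% of all tested genes. This was *Casp6*, an executioner caspase, at 3.32, 2.97, 2.94 and 2.81 FPKM in the Ncf1 Lyz-/- livers and 3.85, 3.15, 3.97, 4.51 and 3.49 FPKM in WT (log2 fold change −0.32, unadjusted p = 0.0311, adjusted p = 0.842). NKO2 lay above WT2 and the other 3 Ncf1 Lyz-/- livers lay below every WT liver. *Dffb* (0.27) and *Parp1* (0.17) were the next by p, with adjusted p = 0.900 and 0.932. *Apaf1*, the scaffold of the apoptosome, and *Casp2* were below the level for the fit. *Apaf1* had 0.266 to 0.333 FPKM in Ncf1 Lyz-/- and 0.314 to 0.522 FPKM in WT livers (difference of the mean log2 values −0.37, exact permutation p = 0.0238).

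Several p53 target genes were lower in the Ncf1 Lyz-/- livers at an unadjusted p, while *Trp53* itself had a log2 fold change of 0.0070 (adjusted p = 0.996). Of 16 genes listed, 15 were tested, 12 were negative (against 49.5% of all tested genes), 4 had an unadjusted p under 0.05 and were lower (*Mdm2*, *Ccng1*, *Ei24*, *Trp53inp1*, against 3.73% of all), 1 was higher (*Tigar*, against 2.17% of all) and 0 passed the adjusted threshold. The median was −0.35, and −0.26 in the 6 libraries of higher depth, where all tested genes had a median of −0.11 and 67.9% were negative. This list was chosen with earlier results of these data known, so its direction is not independent evidence. *Mdm2*, the ubiquitin ligase that degrades p53, was 1 of 61 tested list genes outside the 10, and the only one, with groups that did not overlap, beside 1.50% of all tested genes with every value lower and 0.713% with every value higher, a share near the background. It had 3.14, 4.03, 4.47 and 4.03 FPKM in the Ncf1 Lyz-/- livers and 5.65, 4.63, 4.87, 5.04 and 5.23 FPKM in WT (log2 fold change −0.38, unadjusted p = 0.0138, adjusted p = 0.812). The exact permutation test gave p = 0.00794, the smallest that regrouping the 9 livers allows.

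*Ccng1* (log2 fold change −0.35) and *Ei24* (−0.35) differed by similar amounts and overlapped between the groups (adjusted p = 0.842 for each). *Trp53inp1*, a stress-induced p53 partner, had 23.8, 3.22, 28.4 and 11.0 FPKM in the Ncf1 Lyz-/- livers and 31.6, 16.7, 27.4, 49.4 and 44.8 FPKM in WT. Its log2 fold change of −1.34 (unadjusted p = 0.0484, adjusted p = 0.842) shrank to −0.70 without NKO3. *Cdkn1a*, the p21 gene, had 18.8, 0.946, 21.8 and 14.0 FPKM and 27.7, 2.60, 34.5, 52.3 and 39.8 FPKM, with NKO3 and WT2 far below the rest. It had a log2 fold change of −1.33 (adjusted p = 0.902) over all livers and 0.026 in the 6 libraries of higher depth, which leave out the 3 WT livers with the highest *Cdkn1a*. *Tigar*, a p53 target that limits glycolysis, had 3.24, 4.32, 4.58 and 3.14 FPKM against 2.96, 2.08, 2.38, 3.29 and 3.44 FPKM (0.43, unadjusted p = 0.0466, adjusted p = 0.842).

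Known p53 targets among the 10 genes, of which those named next are not a full list, gave no call. *Bax* (log2 fold change −0.15), *Bbc3* (−0.048) and *Fas* (−0.17) each had an interval that spanned 0, and *Pmaip1* was −0.48 by the difference of means. Outside these, *Bid* went the other way (0.36, interval also spanning 0), and *Tnfrsf10b* was −0.23 by the difference of means. In NKO3, where *Cdkn1a*, *Btg2*, *Trp53inp1* and *Phlda3* were lowest of all 9 livers, *Bax* was 11.1 FPKM, the second highest value. *Pmaip1* was lowest there, at 0.205 FPKM, and *Bbc3* and *Fas* were 1.37 and 7.15 FPKM. The part of p53 in these levels was not tested.

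The list of other upstream regulators, which also holds *Trib3* and *Chac1* although these are not transcription factors, was marked by single livers. Of 11 listed, all 11 were tested, 8 were negative (against 49.5% of all tested genes), 0 had an unadjusted p under 0.05, and the median was −0.13. In NKO4, 6 of the 11 were highest, namely *Atf3*, *Atf4*, *Ddit3*, *Rela*, *Trib3* and *Chac1*. *Atf3* was at 137.5 FPKM there, 64.7 FPKM in WT1 and 4.01 to 13.5 FPKM in the other 7. *Ddit3*, the CHOP gene, followed with 66.4 FPKM in NKO4, 41.5 in WT1 and 5.36 to 22.1 FPKM elsewhere. *Bbc3*, a known CHOP target, was 1.63 and 1.61 FPKM in NKO4 and WT1 and 1.73 FPKM in WT2, where *Ddit3* was 11.5 FPKM. Whether *Bbc3* follows *Ddit3* in these livers was not tested. *Jun* (−0.61), *Foxo1* (−0.55) and *Stat3* (−0.43) were the regulators with the smallest p, with adjusted p = 0.890, 0.890 and 0.900, and all 3 were lowest in NKO3. Without NKO3 *Jun* differed by −0.27, *Foxo1* by −0.40 and *Stat3* by −0.19, and in the 6 libraries of higher depth *Jun* differed by −0.27 and *Stat3* by −0.0046.

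**Figure D3:**
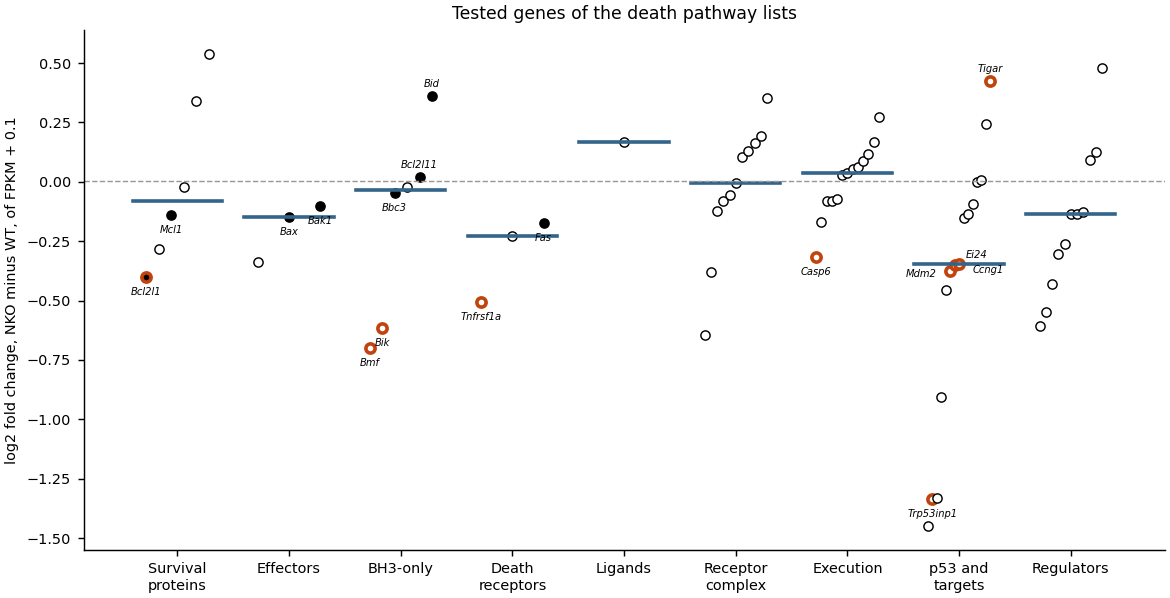
Log2 fold change of FPKM + 0.1, Ncf1 Lyz-/- minus WT, of each tested gene (points) in 9 lists. Filled points are genes of the 10, orange rims mark an unadjusted p under 0.05 in limma, blue bars are list medians and the dashed line is the median of all tested genes, 0.0030. The p53 list has the lowest median, −0.35, and its scatter reaches from −1.45 to 0.43.

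The liver NKO3 was often at an extreme. It was lowest of the 9 livers in 7 of 15 tested p53 genes and in 6 of 11 regulators, and highest in 5 of 11 genes of the receptor complex and 5 of 13 execution genes. Of the 10 genes it was lowest for *Bcl2l11* and *Pmaip1*, and highest within its group for *Bcl2l1*, *Bax*, *Bid* and *Fas*. NKO4 was highest in 6 of 11 regulators. NKO3 had 19.55 M fragments and NKO4 18.6 M, within the range of the other libraries.

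**Figure D4:**
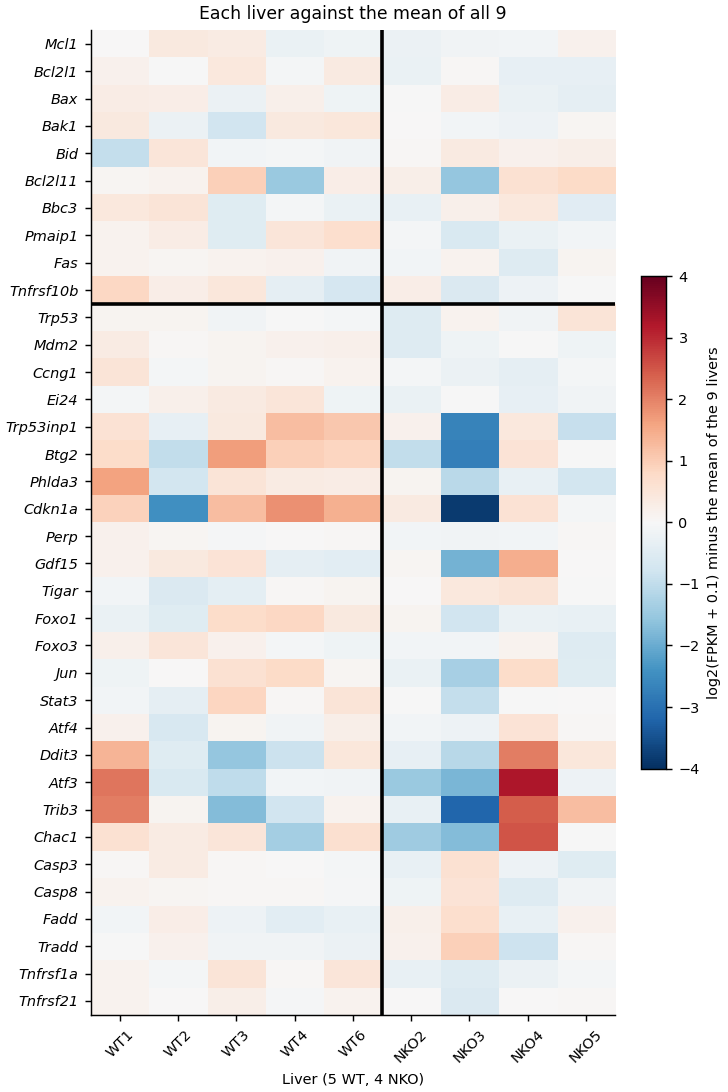
Each cell is a gene's log2(FPKM + 0.1) in 1 liver minus its mean over the 9 livers (colour scale from −4 to 4, red higher), with WT left of the vertical line and NKO right. The 10 genes are above the horizontal line and 26 list genes, chosen after their values were seen, below it. The 10 genes are pale in most livers apart from *Bcl2l11* in NKO3 and WT4, whereas *Cdkn1a*, *Btg2* and *Trib3* are dark blue in NKO3 and *Atf3*, *Trib3* and *Chac1* dark red in NKO4.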

How the data were processed

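Liver RNA of 4 Ncf1 Lyz-/- and 5 WT mice was measured, 1 library a mouse. Per the paper's methods, poly(A) RNA (RIN above 7) was sequenced as stranded paired ends, and HISAT2 (mapping), StringTie (assembly) and edgeR (expression levels) were the authors' tools. Versions, genome build and annotation are not given in the sources used here. The authors deposited FPKM values, in which an absent gene stands at 0.0001, with their own fold changes, p-values and calls, which were not used. The table holds no counts, so no count test was run. Columns were placed in groups by name and could not be tied to single labelled mice.

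Coordinates came from GENCODE M21 (GRCm38), which held 55141 of the identifiers. Depth was recovered from steps of 1 fragment in genes with a single exon, and 1 fragment on 1 kilobase was worth 0.0497 to 0.0656 FPKM. Groups were compared with limma 3.58.1 (R 4.3.3) with its trend option and no covariate, using log2(FPKM + 0.1) of the 12350 genes that averaged 0.5 FPKM or more, and p-values were Benjamini-Hochberg adjusted over all of them. The exact permutation test of single genes was two-sided and took every regrouping of the 9 libraries. Lists are described by counts and medians. The genes named were all 10, *Ncf1* and *Lyz2*, genes of each list with groups that do not overlap, and up to 3 others with the smallest p. Further list genes are named for the livers that stand apart and were chosen after their values were seen. The 10 genes and the lists were chosen with earlier results of these data known. Alternatives were pseudocounts of 0.5 and 1, no filter, a minimum mean of 1 FPKM, median ratio scaling, limma without trend or with array weights, each library left out, and 6 libraries of higher depth. Tables and figures were made in Python 3.11.15.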

Additional observations from a re-analysis of the deposited data

Results flagged for a closer look

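Within groups of 4 or 5 livers, a value was picked out where its gap to the nearest liver exceeded Dixon's 95% limit. This was looked for in 66 groups of 33 genes, chance gives about 1 in 20 groups, and 7 values were picked out. Of the 10 genes, *Bcl2l1* at 4.84 FPKM in NKO3 stood above the 3.72 to 3.84 FPKM of the other Ncf1 Lyz-/- livers, and *Fas* at 5.85 FPKM in WT6 stood below the 6.92 to 7.33 FPKM of the other WT livers. NKO3 also had *Parp1* at 6.35 FPKM (others 4.34 to 4.55), *Stat3* at 6.41 FPKM (others 12.3 to 12.8) and *Tnfrsf21* at 1.42 FPKM (others 2.22 to 2.25). NKO5 had *Bcl2a1b* at 5.52 FPKM (others 0.361 to 1.09) and *Bcl2a1d* at 1.72 FPKM (others 0.476 to 0.647), beside the highest neutrophil marker sum.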

How the results depend on the processing

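None of the 10 genes and none of the other list genes was called at an adjusted p under 0.05 under any of the 17 alternatives that could be fitted, where over all genes the count of 1 became 0 with no filter, 0 without the trend, 6 with array weights and 0 to 1 with a library left out. *Bcl2l1*, *Mcl1*, *Bax*, *Pmaip1*, *Fas* and *Tnfrsf10b* were negative and *Bid* positive under every alternative run for them. With a library left out, the log2 fold change ran from −0.30 to 0.0026 for *Bak1*, −0.35 to 0.54 for *Bcl2l11*, −0.20 to 0.097 for *Bbc3*, −0.12 to 0.54 for *Bcl2l2*, −0.96 to 0.24 for *Bcl2a1b*, −0.18 to 0.11 for *Bad* and −0.0059 to 0.31 for *Tnfsf10*. In the 6 libraries of higher depth it turned to −0.099 for *Bcl2l11*, −0.39 for *Tnfsf10*, −0.11 for *Parp1* and 0.061 for *Foxo1*, and with array weights to 0.32 for *Bcl2a1b* and 0.033 for *Bad*; the cause was not tested. The adjusted p of *Bcl2l1* ranged from 0.268 to 0.9997. The genes at an unadjusted p under 0.05 were 594 higher with no filter, 676 higher and 725 lower with array weights, 161 higher in the 6 libraries, and 664 higher and 568 lower without WT2, against 268 higher and 461 lower over all libraries. With a library left out, 0 (without NKO4, NKO5 or WT6) to 2 (*Bcl2l1* and *Bid* without WT2) of the 10 genes had such a p. In the 6 libraries of higher depth, 0 of the 10 genes had it. Of the 61 other tested list genes, 3 (without WT3) to 10 had it with a library left out. Over all libraries 9 had it, 8 lower and 1 higher, against 3.73% and 2.17% of all tested genes. Depth limits *Pmaip1* and *Tnfrsf10b*. No paired analysis was possible because the columns' numbers cannot be tied to the replicate numbers of the labels.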
